A study of Mus musculus with 18 samples.

Results

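The 40 mitotic genes described here encode the kinases, cyclins, motors, kinetochore proteins and chromosome proteins that carry a cell through division. They were chosen by symbol from a named list, ignoring case, and are 40 of the 44349 genes of the deposited table. Bulk RNA-seq was made of cells sorted from mouse bone marrow as long-term repopulating stem cells of the blood (LT-HSC), in 18 libraries that form 6 groups of 3. The sort was lineage-negative, Sca-1+, c-Kit+, CD34-, Flk2- and CD49b-low. The mice were wild type or lacked DERARE, a distal element through which retinoic acid acts on the Hoxb genes. The groups were KO Wnt5a (knockout cells with the Wnt5a label, described as a rescue), KO Ctrl (knockout cells, whose genotype entry reads as a knockout and a wt control), Wnt5a (cells with the Wnt5a label and no knockout label), WT (wild type), KO Reserve and WT Reserve. The reserve groups are knockout and wild-type cells with a reserve label, and the genotype entry of KO Reserve holds the words wild type as well as ko. Wnt5a is a secreted ligand of noncanonical Wnt signalling. The labels give neither how nor for how long it was supplied, nor the age of the mice, nor whether the 3 replicates of a group came from separate mice. The p-values below therefore measure the spread between libraries, which may be technical. DERARE is an element with no row in the table, which therefore gives no check of its deletion.

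Most adult LT-HSC are quiescent, and mitotic transcripts are made mainly in the last phase before division and in mitosis itself. CDK1 bound to cyclin A or B starts mitosis, the Polo-like and Aurora kinases build and correct the spindle, and the spindle checkpoint holds back the anaphase-promoting complex until every kinetochore is attached. The promoters of these genes commonly hold a CHR element near the start site, read by the DREAM repressor in quiescent cells and by the MuvB complex with B-MYB and FOXM1 in dividing ones, and CCAAT boxes read by NF-Y. The inhibitor p21, encoded by Cdkn1a, is known to favour the repressor.

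Promoter sequence was available in RefSeq (GRCm38.p6) for 33 of the 40 mitotic genes, in 36 windows of 300 bases that run from 250 before to 50 after an annotated start. Both strands were searched for the letters TTTGAA and TTCGAA, which are CHR-type motifs, and for CCAAT. A CHR-type motif was present in 29 of the 36 windows (80.6%), against 19.2% of 32851 promoters of all genes and 14.6% of 12332 promoters of the tested genes. CCAAT was present in 28 (77.8%), against 37.4% of all promoters and 38.1% of those of tested genes. Both kinds were present in 25 (69.4%), against 7.5% and 6.0%. Of 40 CHR-type copies 27 lay within 50 bases of the start, and of 67 CCAAT copies 42 lay in the 100 bases before it. The windows of Bub3, Ect2 and Prc1, a pair for each gene, overlap and were each counted. The promoters of 5 genes are shown because the results below turn on these genes, both called and not called, with every motif copy on either strand in capitals (TTCAAA and ATTGG are the reverse-strand forms). Plk1 (chr7:122159185-122159484, plus strand) and Kif23 (chr9:61946750-61947049, minus strand) each hold 1 copy of both kinds within 50 bases of the start. Cdk1 (chr10:69352863-69353162, minus strand) holds 2 CHR-type and 3 CCAAT copies, Top2a (chr11:99024140-99024439, minus strand) 4 and 6, and Ccnb1 (chr13:100786437-100786736, minus strand) 2 CCAAT copies and no CHR-type letters in this window.
Plk1: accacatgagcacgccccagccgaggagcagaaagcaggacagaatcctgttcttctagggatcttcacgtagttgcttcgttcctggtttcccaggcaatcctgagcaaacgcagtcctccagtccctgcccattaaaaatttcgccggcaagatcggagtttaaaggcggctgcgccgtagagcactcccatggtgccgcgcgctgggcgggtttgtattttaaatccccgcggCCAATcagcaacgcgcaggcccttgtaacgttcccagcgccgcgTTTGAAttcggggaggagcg
Kif23: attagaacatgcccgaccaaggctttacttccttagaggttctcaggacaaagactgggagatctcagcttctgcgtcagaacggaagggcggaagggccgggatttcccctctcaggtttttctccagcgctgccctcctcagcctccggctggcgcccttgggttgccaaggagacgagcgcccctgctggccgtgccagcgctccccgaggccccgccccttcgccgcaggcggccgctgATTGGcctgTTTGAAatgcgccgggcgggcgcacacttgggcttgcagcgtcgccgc
Cdk1: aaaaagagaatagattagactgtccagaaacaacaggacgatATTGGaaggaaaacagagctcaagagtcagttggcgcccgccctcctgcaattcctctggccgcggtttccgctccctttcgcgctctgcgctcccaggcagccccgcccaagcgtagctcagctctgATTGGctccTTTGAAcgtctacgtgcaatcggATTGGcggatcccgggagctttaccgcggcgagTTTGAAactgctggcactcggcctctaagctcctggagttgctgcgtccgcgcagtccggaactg
Top2a: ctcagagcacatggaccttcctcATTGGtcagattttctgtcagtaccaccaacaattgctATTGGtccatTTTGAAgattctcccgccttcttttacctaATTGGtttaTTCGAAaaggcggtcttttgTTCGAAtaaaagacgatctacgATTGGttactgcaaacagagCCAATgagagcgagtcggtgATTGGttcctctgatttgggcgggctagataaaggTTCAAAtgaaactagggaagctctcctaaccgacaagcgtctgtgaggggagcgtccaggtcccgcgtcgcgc
Ccnb1: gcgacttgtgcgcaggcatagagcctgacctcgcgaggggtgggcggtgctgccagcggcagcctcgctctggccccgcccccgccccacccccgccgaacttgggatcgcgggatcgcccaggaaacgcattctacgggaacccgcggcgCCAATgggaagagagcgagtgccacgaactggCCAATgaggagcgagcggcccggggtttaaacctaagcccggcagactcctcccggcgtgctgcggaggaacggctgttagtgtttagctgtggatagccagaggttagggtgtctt

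All 40 mitotic genes passed the filter (1 FPKM or more in 3 or more libraries), and their values over the 18 libraries lay between 3.34 and 1059 FPKM (fragments scaled by transcript length and library depth). Values for 1 group below are given in the order of replicates 1, 2 and 3, means are FPKM ± SD with n = 3 libraries, and log2 fold changes are on the log2(FPKM + 1) scale with the SE of limma. A gene is said to have risen or fallen at a Benjamini-Hochberg adjusted p below 0.05 over the 14285 tested genes. The implied depth was 23100000 to 46200000 fragments per library, at which 3 fragments on 1 kb of transcript are worth 0.065 to 0.130 FPKM. The table comes from unstranded libraries, and 12 of the 40 genes share exonic bases with another gene: Ccna2, Cdc25c, Plk1, Cdc20, Ube2c, Kif4, Nusap1, Tacc3, Kif20a and Prc1 with a neighbour on the other strand, and Top2a and Ncapd2 with small RNA or unnamed genes. Their values can include fragments of that neighbour. In GRCm38 with GENCODE release M21, the genes the comparisons turn on lie at chr11:98992943-99024189 on the minus strand (Top2a), chr19:37376403-37421859 on the plus strand (Kif11), chr9:61915905-61946774 on the minus strand (Kif23) and chr3:27097222-27153878 on the minus strand (Ect2).

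The sorted identity was read from marker genes. All 15 LT-HSC markers were above 0.1 FPKM in at least 1 library of each group. All 7 megakaryocyte and all 7 B lymphoid markers met this criterion too, so it does not set LT-HSC apart from those cells. In the 12 libraries without the reserve label, megakaryocyte markers summed to 7394 to 31053 FPKM and LT-HSC markers to 593 to 741. Summed B lymphoid markers were 1553 to 2388 FPKM in the reserve libraries and 28.2 to 71.7 in the other 12. Itga2, which encodes CD49b, was below 0.1 FPKM in every library of KO Wnt5a, KO Ctrl, KO Reserve and WT Reserve. Of 7 tested genes of the markers that the gate excludes, 6 were higher and 1 lower in both WT Reserve against WT and KO Reserve against KO Ctrl, with median log2 fold changes of 3.71 and 2.07. The lowest were -2.38 and -5.15. Of all tested genes 30.8% were higher and 27.9% lower in the former comparison, and 24.8% and 40.4% in the latter. The 9 listed markers summed to 350.1 to 386.5 FPKM in WT Reserve and 357.6 to 387.9 in WT. Their sums were 174.6 to 239.7 FPKM in KO Reserve and 387.8 to 454.2 in KO Ctrl. Transcripts of Cd34, the surface protein sorted against, were present at 299.8 to 437 FPKM in the 12 libraries without the reserve label. A first principal component over all 18 libraries held 53.28% of the variance. In the reserve set the summed level of 10 granulocyte genes was 2530 to 3753 FPKM in KO Reserve and 4814 to 10741 in WT Reserve, against 19.2 to 135 in the other 12 libraries. The summed level of 12 erythroid genes was 9110 to 10681 FPKM in KO Reserve and 5866 to 7936 in WT Reserve, against 719 to 801. Comparisons that involve a reserve group are read with these levels beside them, and their part in any mitotic difference was not tested. In bulk samples, fewer dividing cells and less mitotic RNA per cell cannot be told apart.

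Levels per length differed over a wide range among the mitotic genes. In WT, Cdk1 was highest at 452 ± 5.81 FPKM, followed by Cks2, which encodes a small subunit of CDK complexes, at 346 ± 18.3. Ube2c, the ubiquitin-conjugating enzyme of the anaphase-promoting complex, stood at 334 ± 23.6, a mean within 1 SD of that of Cks2. The lowest were Anln, which encodes the actin-binding protein anillin of the cleavage furrow, at 5.34 ± 0.773, and Ect2, the exchange factor that activates RhoA there, at 4.16 ± 0.787. In KO Wnt5a, KO Ctrl, Wnt5a and WT the same 3 genes, Cdk1, Cks2 and Ube2c, led the order. In the reserve groups Cks2 led, at 1046 ± 20.0 FPKM in KO Reserve and 608 ± 100.4 in WT Reserve.

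**Figure D1:**
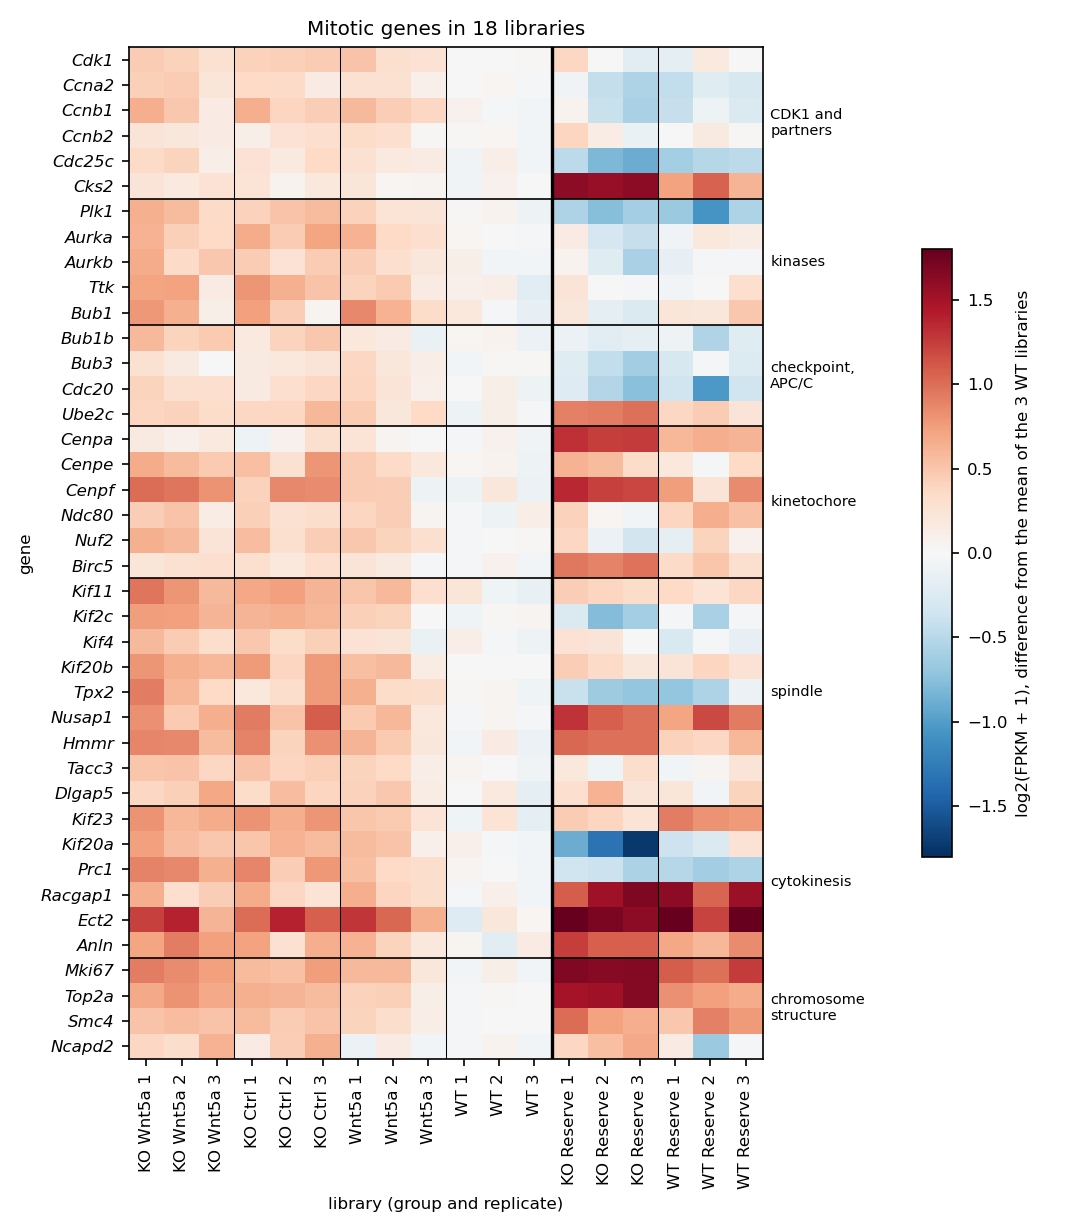
Levels of the 40 mitotic genes (rows, by role) in the 18 libraries (columns), as the difference in log2(FPKM + 1) from the mean of the 3 WT libraries. Nearly all cells of KO Wnt5a, KO Ctrl and Wnt5a are above WT, Wnt5a replicate 3 is paler than its group, and the reserve columns hold both strongly higher genes (Cks2, Mki67, Top2a) and lower ones (Kif20a, Plk1).

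Loss of DERARE was compared with wild type outside the reserve set first. The log2 fold change of KO Ctrl over WT was positive for 40 of the 40 mitotic genes, and 16 rose and 0 fell, where 1.53% of all tested genes rose and 1.12% fell. The median over the mitotic genes was 0.446, against 0.040 over all tested genes. The libraries of the groups did not overlap for 37 genes, all higher in KO Ctrl, where 15.9% of all genes were higher and 11.4% lower without overlap. At an unadjusted p below 0.05, 34 were higher and 0 lower, where 10.5% of all genes were higher and 7.13% lower. Cks2, Bub1 and Cenpa overlapped.

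Chromosome structure genes held the smallest p of the comparison among the mitotic genes. Top2a, the topoisomerase that untangles sister chromatids, had 155, 152 and 147 FPKM in KO Ctrl, against 97.6, 100.2 and 99.5 in WT. Every KO Ctrl library was above every WT library, and Top2a rose 1.52-fold (log2 fold change 0.61, SE 0.086, adjusted p = 0.000889, limma). Mki67, the proliferation marker that coats mitotic chromosomes, had 21.5, 20.8 and 24.4 FPKM in KO Ctrl, against 13.6, 15.2 and 13.6 in WT. It rose by 0.62 on the log2 scale (SE 0.116, adjusted p = 0.00832, limma). Smc4, a core subunit of condensin, had 201, 186 and 194 FPKM in KO Ctrl, against 133, 136 and 136 in WT, and rose too (adjusted p = 0.0148, limma). Ncapd2, another condensin subunit, did not pass, at 141 ± 23.4 FPKM in KO Ctrl and 105 ± 4.47 in WT (adjusted p = 0.215, limma).

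Of the 9 spindle genes 5 rose: Kif11, Kif20b, Nusap1, Hmmr and Tacc3. Kif11, the motor that pushes the spindle poles apart, had 36.2, 37 and 33.8 FPKM in KO Ctrl, against 25.5, 20.6 and 19.8 in WT, without overlap and 1.6-fold higher (adjusted p = 0.00476, limma). Nusap1, a microtubule-bundling protein, averaged 85.5 ± 17.1 FPKM in KO Ctrl and 46.4 ± 1.48 in WT. Its log2 fold change of 0.85 was exceeded among the 40 by that of Ect2 alone. Hmmr, the hyaluronan-mediated motility receptor that binds spindle microtubules, had 37.5, 26.4 and 35.9 FPKM in KO Ctrl, against 19.2, 22 and 18.4 in WT, and rose by 0.70 without overlap. Kif20b, a motor of the midzone, averaged 20.5 ± 3.06 FPKM in KO Ctrl and 12.7 ± 0.0588 in WT, and Tacc3, which stabilizes kinetochore fibres, averaged 157 ± 7.44 and 115 ± 4.22. Of the 4 spindle genes that did not pass, Kif2c came nearest (adjusted p = 0.051, limma), and Kif4, the chromokinesin, and Dlgap5, a spindle assembly factor, were higher in KO Ctrl by 0.42 and 0.43 on the log2 scale. Tpx2, which activates Aurora A on the spindle, had 53.4, 58 and 80.0 FPKM in KO Ctrl, against 47.1, 48.4 and 44.3 in WT. The KO Ctrl libraries lay above those of WT but spread widely, and Tpx2 did not pass (adjusted p = 0.22, limma).

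Cytokinesis genes had the highest median of any role, 0.634 on the log2 scale, and 3 of 6 rose. Kif23, the motor subunit of centralspindlin, had 18.5, 16.6 and 18.3 FPKM in KO Ctrl, against 9.56, 12.3 and 8.9 in WT, and rose 1.68-fold (adjusted p = 0.00347, limma). Ect2 rose most of all 40, at 9.24, 12.4 and 9.84 FPKM in KO Ctrl and 3.34, 4.91 and 4.24 in WT, a log2 fold change of 1.16 (SE 0.247, adjusted p = 0.0186, limma). Its lowest KO Ctrl library was above its highest WT library. Prc1, which bundles microtubules of the spindle midzone, rose as well, with 162 ± 25.2 FPKM in KO Ctrl and 98.3 ± 3.08 in WT. Kif20a, the motor that carries the passenger complex to the midzone, had 28.3, 30.9 and 29.6 FPKM in KO Ctrl, against 21, 19.2 and 19 in WT, apart but with an adjusted p of 0.132 by limma. Racgap1 averaged 55 ± 8.4 FPKM in KO Ctrl and 40.4 ± 2.27 in WT and did not pass. Anln averaged 8.36 ± 1.5 FPKM in KO Ctrl and 5.34 ± 0.773 in WT and did not pass (adjusted p = 0.0568, limma).

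Of the 5 mitotic kinases Plk1, Aurka and Ttk rose. Plk1, the Polo-like kinase of mitotic entry and spindle assembly, had 105, 113 and 117 FPKM in KO Ctrl, against 79.9, 82.1 and 73.6 in WT (log2 fold change 0.50, SE 0.120). Aurka, the centrosomal Aurora kinase, had 126, 108 and 130.1 FPKM in KO Ctrl, against 80.7, 78.6 and 77.6 in WT (log2 fold change 0.61, SE 0.133). Neither gene's groups overlapped. Ttk, the MPS1 kinase that starts checkpoint signalling, averaged 20.7 ± 2.14 FPKM in KO Ctrl and 12.9 ± 1.68 in WT and rose by 0.65. Aurkb, the kinase of the chromosomal passenger complex, averaged 145 ± 11.6 FPKM in KO Ctrl and 111 ± 7.4 in WT, above WT in 3 of 3 libraries but not past the test (adjusted p = 0.126, limma).

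The CDK1 group, the checkpoint and the kinetochore gave fewer calls. None of the 6 genes of CDK1 and its partners passed at the adjusted threshold, and 4 were higher at an unadjusted p below 0.05. Cdk1 had 604, 607 and 619 FPKM in KO Ctrl, against 447, 449 and 458 in WT, wholly apart, with an adjusted p of 0.0625 by limma. Ccnb1, cyclin B1, had 227, 187 and 194 FPKM in KO Ctrl, against 151, 141 and 138 in WT (adjusted p = 0.0903, limma), and Ccna2, cyclin A2, averaged 204 ± 15.6 and 167 ± 3.88 in the same groups. Ccnb2, cyclin B2, Cdc25c, the phosphatase that activates CDK1, and Cks2 were higher in KO Ctrl by 0.22, 0.26 and 0.17 on the log2 scale and did not pass. Of the 4 checkpoint and anaphase-promoting complex genes Ube2c rose, at 433, 431 and 505 FPKM in KO Ctrl and 314, 360.2 and 327 in WT. The other members of that role were higher in KO Ctrl without overlap and did not pass: Bub1b, which encodes BUBR1, averaged 44.8 ± 4.98 FPKM in KO Ctrl and 34.8 ± 2.14 in WT, and Cdc20, the activator of the anaphase-promoting complex, averaged 295 ± 22.7 and 243 ± 17.1. Of the 6 centromere and kinetochore genes Cenpf rose, at 28.3, 39.1 and 38.4 FPKM in KO Ctrl and 19.5, 24.2 and 19.4 in WT. Cenpe, Nuf2, Ndc80 and Birc5 were apart and did not pass, with log2 fold changes of 0.54, 0.43, 0.34 and 0.26. Cenpa, the centromeric histone, had the smallest fold change of all 40, 0.091, with 245, 273 and 317 FPKM in KO Ctrl overlapping 256, 275 and 249.7 in WT.

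The count of 16 depended on single libraries. Without WT replicate 1 it was 6, without WT replicate 2 it was 10, without WT replicate 3 it was 5 and without KO Ctrl replicate 3 it was 9. Of all 14285 tested genes 106, 132, 79 and 129 rose in those fits, against 218 with every library. Kif11, Kif23, Nusap1, Prc1 and Top2a passed with any 1 library left out. Summed megakaryocyte markers moved with the genotype, at 11576 to 19972 FPKM in KO Ctrl and 21121 to 31053 in WT, with 1 of 7 markers lower and none below 0.1 FPKM in all libraries of a group. Of 7 B lymphoid markers 3 were higher in KO Ctrl, with sums of 64.1 to 71.7 FPKM in KO Ctrl and 28.2 to 36.3 in WT. Of 6 mast cell and basophil markers 3 were lower, with sums of 52.5 to 78 FPKM in KO Ctrl and 75 to 84.4 in WT. Of 14 LT-HSC markers 3 were higher, where 1.53% of all tested genes were higher and 1.12% lower. The granulocyte sum was 19.2 to 32.4 FPKM in KO Ctrl and 80 to 96 in WT, with 1 marker higher and 1 lower of 10. The part of any of these in the difference was not tested. Mitotic genes with a longer annotated transcript tended to have the larger fold change (Spearman's rho 0.327 across 40 genes, which share libraries). With a length trend over all genes removed, 13 genes rose, where 1.33% of all genes did, and the fold change of Cenpa was -0.015.

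**Figure D2:**
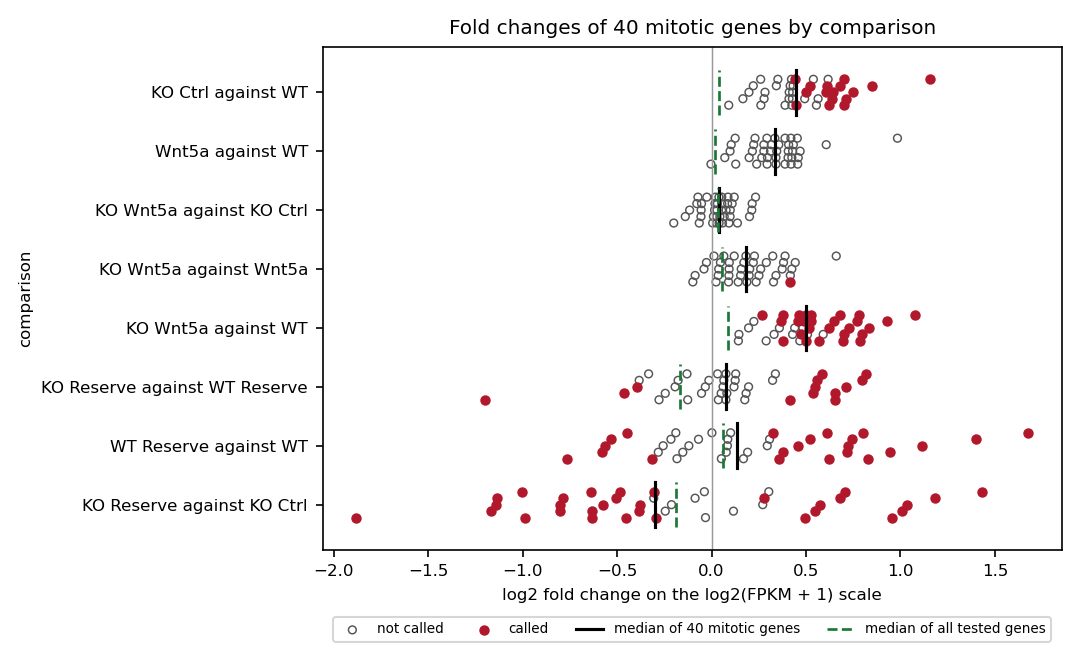
Log2 fold changes (x axis, on the log2(FPKM + 1) scale) of the 40 mitotic genes in 8 comparisons (rows), with the medians of the mitotic genes (solid line) and of all tested genes (dashed line). Filled points passed at adjusted p below 0.05. The comparisons of KO Ctrl, Wnt5a and KO Wnt5a against WT lie almost wholly to the right of 0, and those with a reserve group spread to both sides.

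The Wnt5a label was set against WT next. The mitotic genes were higher in Wnt5a for 39 of 40, with a median log2 fold change of 0.338, against 0.019 over all tested genes. None passed at the adjusted threshold in limma, where 0.0420% of all tested genes rose and 0.00700% fell. At an unadjusted p below 0.05, 25 were higher and 0 lower, where 4.43% of all genes were higher and 3.45% lower. The groups did not overlap for 26 genes, all higher with Wnt5a, against 11.7% of all genes higher and 9.71% lower. With library weights in limma, 34 of the 40 rose and 0 fell, where 5.82% of all tested genes rose and 4.96% fell. None of the 40 rose in any other setting run, the fits with 1 library left out included. Of 6 mast cell and basophil markers 2 were higher in Wnt5a in the unweighted fit, with sums of 128 to 227 FPKM in Wnt5a and 75 to 84.4 in WT and 1 marker, Prss34, below 0.1 FPKM in all WT libraries. Their part in the difference was not tested.

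Ect2 again had the largest fold change, with 11.4, 9.44 and 7.0 FPKM in Wnt5a, against 3.34, 4.91 and 4.24 in WT, a log2 fold change of 0.98 (SE 0.247, adjusted p = 0.337, limma). Mki67 had 21.7, 21.6 and 16.4 FPKM in Wnt5a, against the 13.6, 15.2 and 13.6 of WT, and Kif11 had 31.2, 33.1 and 27.1, against 25.5, 20.6 and 19.8. All 3 genes were apart from WT, and in each the third Wnt5a library was the lowest. Ncapd2 was at 105 ± 9.67 FPKM in Wnt5a and 105 ± 4.47 in WT, the single gene without a positive fold change (-0.003). Of the roles, all 5 mitotic kinases were apart from WT, among them Bub1, a kinase of the spindle checkpoint, at 35.6 ± 6.71 FPKM in Wnt5a and 22.9 ± 2.88 in WT. Birc5, which encodes survivin of the passenger complex, had 345, 329.7 and 289 FPKM in Wnt5a, against 286, 311 and 284 in WT, and overlapped.

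One library of the Wnt5a group lay below the others. Wnt5a replicate 3 was the lowest of its group in 37 of 40 mitotic genes, and replicate 1 the highest in 31. The third library was also the lowest most often in WT (27 of 40), KO Wnt5a (27) and KO Reserve (28), but not in KO Ctrl (7) or WT Reserve (5). The mean of log2(FPKM + 1) over the 40 genes was 6.18, 6.09 and 5.88 in Wnt5a replicates 1, 2 and 3, against 5.72, 5.76 and 5.67 in WT. The third Wnt5a library was nearest to WT and still above all WT libraries. Cdkn1a was at 82.7, 87.4 and 162 FPKM in Wnt5a replicates 1, 2 and 3, against 194, 207 and 233 in WT, so the third Wnt5a library was nearest to WT in this gene too. Its megakaryocyte marker sum was 28800 FPKM, against 16965 and 12710 in replicates 1 and 2, and the part of those cells was not tested.

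**Figure D3:**
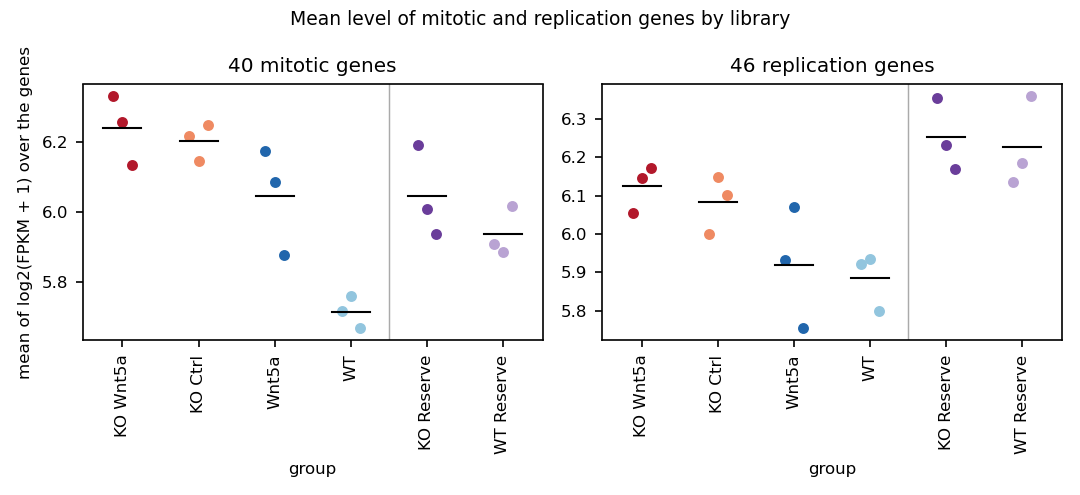
Mean of log2(FPKM + 1) over the 40 mitotic genes (left) and over 46 DNA replication genes (right) in each library (points), with group means (bars). The mitotic mean is 5.67 to 5.76 in the WT libraries and at least 5.88 in all libraries of KO Wnt5a, KO Ctrl and Wnt5a, and the third Wnt5a library is the lowest of those.

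Within the knockout, the Wnt5a label made no detectable difference to the mitotic genes. KO Wnt5a against KO Ctrl had a median log2 fold change of 0.040, against 0.036 over all tested genes, and a range of -0.20 (Nusap1) to 0.23 (Anln). By limma 0 genes passed at the adjusted threshold and 0 at an unadjusted p below 0.05, where 0.315% of all tested genes rose and 0.707% fell at the adjusted threshold, and 5.82% were higher and 4.86% lower at the unadjusted one. Top2a alone was without overlap, at 160.2, 174 and 159.9 FPKM in KO Wnt5a, against 155, 152 and 147 in KO Ctrl, where 10.1% of all genes were higher and 6.76% lower without overlap. Its difference of 0.12 (SE 0.086) did not pass. Of 6 mast cell and basophil markers 3 were higher in KO Wnt5a, with sums of 127 to 142 FPKM in KO Wnt5a and 52.5 to 78 in KO Ctrl, and their part was not tested. Mki67 averaged 25.9 ± 1.67 FPKM in KO Wnt5a and 22.2 ± 1.9 in KO Ctrl, Plk1 113 ± 11.5 and 111 ± 6.14, and Cdk1 589 ± 39.1 and 609.6 ± 8.07, all with overlapping libraries.

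KO Wnt5a against WT gave the largest count of rising genes outside the reserve set. All 40 fold changes were positive, 27 genes rose and 0 fell, where 6.80% of all tested genes rose and 5.03% fell, and the median was 0.50, against 0.088 over all genes. All 9 spindle genes rose, as did 4 of 5 kinases, 4 of 6 cytokinesis genes, 3 of 4 chromosome structure genes, 3 of 6 kinetochore genes, 2 of 4 checkpoint genes and 2 of 6 of the CDK1 group. Tpx2 had 89, 71.1 and 59.8 FPKM in KO Wnt5a, against 47.1, 48.4 and 44.3 in WT, fully apart and 1.54-fold higher. Cenpe, the kinetochore motor, had 18.3, 16.9 and 15.8 FPKM in KO Wnt5a, against 11.4, 11.6 and 10.3 in WT, and rose (adjusted p = 0.0159, limma). Anln had 9.33, 11 and 9.49 FPKM in KO Wnt5a, against 5.51, 4.5 and 6.02 in WT, and rose 1.73-fold. The groups were apart for 38 genes, where 25.1% of all genes were higher and 13.9% lower without overlap, and Bub1 and Bub3 overlapped. At an unadjusted p below 0.05, 36 genes were higher, where 17.6% of all genes were higher and 9.53% lower. Bub3, a checkpoint protein that binds kinetochores, had the smallest fold change, with 333, 311 and 274 FPKM in KO Wnt5a and 267, 281 and 280.5 in WT. The count was 13 without WT replicate 3, where 308 of the 14285 tested genes rose, and 14 without KO Wnt5a replicate 1, where 563 did. It was 16 with median-ratio scaling, where 3.53% of all genes rose. Summed megakaryocyte markers were 7394 to 10714 FPKM in KO Wnt5a and 21121 to 31053 in WT, with 7 of 7 markers lower and none below 0.1 FPKM in all libraries of a group, and their part was not tested. This comparison shares its WT libraries with the comparisons of KO Ctrl and Wnt5a against WT.

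The genotypes were also compared with the Wnt5a label on both sides. KO Wnt5a against Wnt5a had a median of 0.184, against 0.053 over all genes, and 1 gene rose, where 1.41% of all tested genes rose and 1.82% fell. Markers of other cells moved with this comparison: 4 of 6 mast cell and basophil markers were lower and 1 higher in KO Wnt5a (sums of 127 to 142 FPKM in KO Wnt5a and 128 to 227 in Wnt5a), and 3 of 7 megakaryocyte markers were lower. Their part was not tested. The 1 mitotic gene that rose was Top2a, at 160.2, 174 and 159.9 FPKM in KO Wnt5a, against 132, 133 and 106 in Wnt5a (log2 fold change 0.41, SE 0.086, adjusted p = 0.0136, limma). The call was lost without Wnt5a replicate 3 or KO Wnt5a replicate 2, with median-ratio scaling, with the compared libraries alone and with a length trend removed. Cenpf, a kinetochore protein, had the largest fold change, 0.66, at 43.1, 41.6 and 37.5 FPKM in KO Wnt5a and 29.1, 28.7 and 19.5 in Wnt5a. The groups were apart, but its adjusted p was 0.0521 by limma. At an unadjusted p below 0.05, 13 genes were higher and 0 lower, where 10.8% of all genes were higher and 6.32% lower. The groups did not overlap for 14 genes, all higher in KO Wnt5a, where 17.6% of all genes were higher and 10.2% lower without overlap.

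The difference between the Wnt5a effects of both genotypes was tested as an interaction. The estimated effect was smaller in the knockout for 38 of 40 mitotic genes, with a median difference of -0.275, against 0.014 over all genes. No gene passed at the adjusted threshold, where 0.0210% of all tested genes were higher and 0.0490% lower. At an unadjusted p below 0.05, 0 genes were higher and 8 lower, where 2.88% of all genes were higher and 3.16% lower. The most negative was Ect2, at -1.06 (SE 0.349, adjusted p = 0.573, limma). A difference between the Wnt5a effects was therefore not shown for any single gene.

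**Figure D4:**
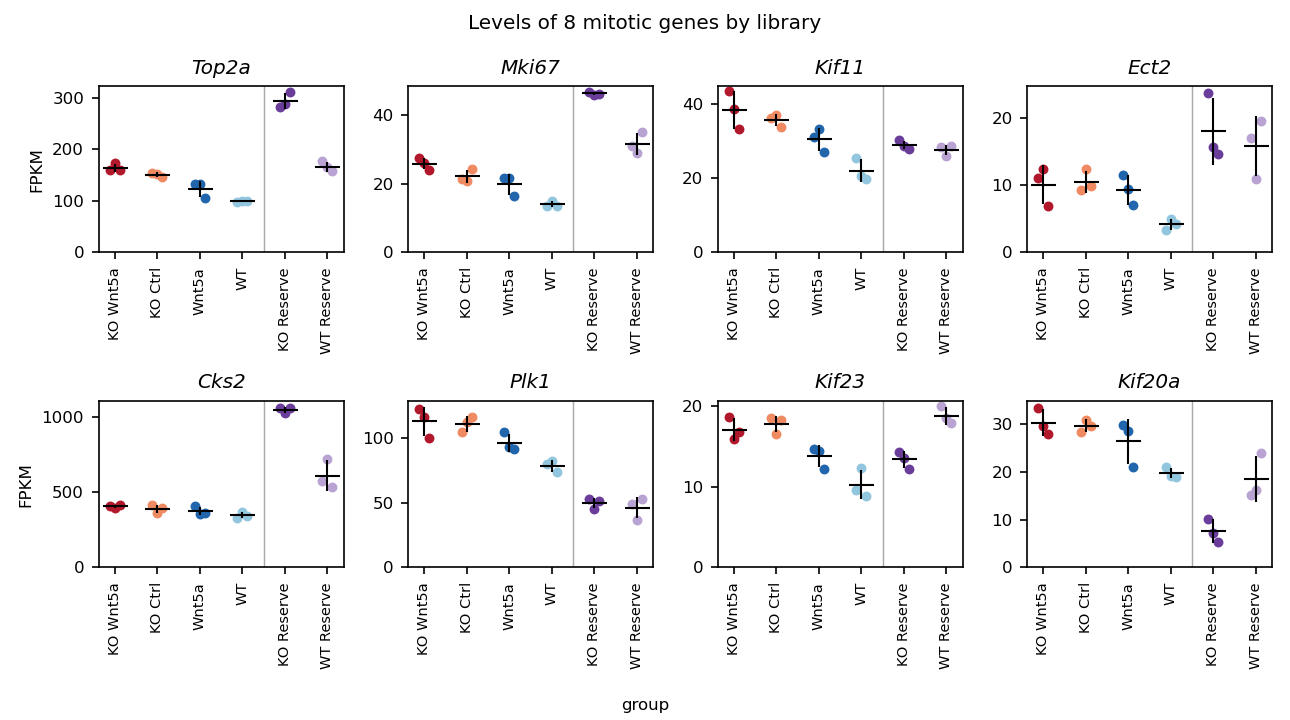
FPKM of 8 mitotic genes in each library (points), with the mean (horizontal line) and SD (vertical line) of each group, n = 3. Top2a, Mki67 and Kif11 are lowest in WT among the first 4 groups, Cks2 stands at 1023 or more in KO Reserve, and Kif20a is lowest in KO Reserve.

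In the reserve set the mitotic genes differed between the genotypes in both directions on the deposited scale. KO Reserve against WT Reserve had 10 genes that rose and 3 that fell, where 12% of all tested genes rose and 29.3% fell. The median of the mitotic genes was 0.076, against -0.168 over all genes. Scaling moved the median of all genes to 0.029 with quantile normalization and to 0.004 with median-ratio scaling, and the split of mitotic genes moved too. It was 17 higher and 1 lower with quantile normalization, where 22.1% of all genes rose and 19.3% fell. It was 21 higher and 1 lower with median-ratio scaling, where 21.2% rose and 20.1% fell, and 20 higher and 1 lower with a length trend removed, where 19.9% rose and 19.2% fell. The signs of 7 or 8 genes that had not passed turned in each of these settings, among them Ccna2, Ccnb1, Ttk, Nuf2 and Tpx2. Kif20a fell and Birc5, Cenpa, Cenpf, Ube2c, Mki67, Ncapd2, Top2a, Cks2 and Hmmr rose in all of these settings. Ndc80 and Kif23 did not pass after either rescaling. On the deposited scale the groups did not overlap for 11 genes higher and 3 lower in KO Reserve, where 14% of all genes were higher and 30.7% lower without overlap.

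Top2a had 282, 288 and 312 FPKM in KO Reserve, against 177, 165 and 157 in WT Reserve, and rose 1.76-fold (log2 fold change 0.82, SE 0.086, adjusted p = 2.19e-06, limma). Mki67 had 46.9, 46 and 46.3 FPKM in KO Reserve, against 31.1, 28.9 and 35.3 in WT Reserve, and rose by 0.54. Cks2 had 1059, 1023 and 1056 FPKM in KO Reserve, against 572, 722 and 531 in WT Reserve, and rose by 0.79. In all 3 genes every KO Reserve library was above every WT Reserve library. Ube2c had 628, 633 and 664 FPKM in KO Reserve, against 434, 457 and 392 in WT Reserve, and Birc5 had 567, 549 and 578, against 373, 418 and 359, and both rose without overlap. Anln rose at an adjusted p of 0.0348 by limma, and its call was lost in 5 of the 6 fits with 1 library left out. Cenpa rose too, at 631 ± 16 FPKM in KO Reserve and 401 ± 7.61 in WT Reserve.

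Kif20a had 10.2, 7.25 and 5.21 FPKM in KO Reserve, against 15.1, 16.3 and 23.9 in WT Reserve. It fell by 1.20 on the log2 scale (SE 0.194, adjusted p = 0.000138, limma), the largest change among the 40 mitotic genes, without overlap. Kif23 had 14.4, 13.6 and 12.3 FPKM in KO Reserve, against 20.1, 18.5 and 17.9 in WT Reserve, and fell in the deposited scale (log2 fold change -0.46, adjusted p = 0.00646, limma). After quantile normalization its fold change was -0.184, and the call was lost. Ndc80, of the kinetochore complex that binds microtubules, had 33.2, 25.2 and 23.7 FPKM in KO Reserve, against 32.5, 39.2 and 36.1 in WT Reserve; those groups overlapped. No mitotic kinase passed: Aurka had 87.6, 63.7 and 58.8 FPKM in KO Reserve, against 75.8, 89.8 and 86.6 in WT Reserve, and Plk1 had 53.2, 45.5 and 51.1, against 49.2, 36.9 and 53, both with overlap. The cyclins Ccna2, Ccnb1 and Ccnb2 did not pass, with Ccnb1 at 118 ± 28.3 FPKM in KO Reserve and 120.3 ± 14 in WT Reserve.

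Beside these differences, markers of other blood cells moved with genotype in the reserve set. Of 12 erythroid markers 7 were higher and 0 lower in KO Reserve, and of 10 granulocyte markers 7 were lower, with no marker of either list below 0.1 FPKM in all libraries of a reserve group. Of all tested genes 12% were higher and 29.3% lower. All 4 monocyte and macrophage and both T lymphoid markers tested were lower. So were 3 of 7 megakaryocyte, 2 of 7 B lymphoid and 2 of 6 mast cell and basophil markers, and none of these lists held a higher marker. Of the 14 LT-HSC markers tested 12 were lower in KO Reserve, with sums of 236 to 254 FPKM in KO Reserve and 527 to 795 in WT Reserve. The part of these cells in the mitotic differences was not tested. KO Reserve replicate 1 was the highest of its group in 33 of 40 mitotic genes and replicate 3 the lowest in 28. Without KO Reserve replicate 1, 8 of the 40 mitotic genes fell, where 4264 of the 14285 tested genes fell.

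**Figure D5:**
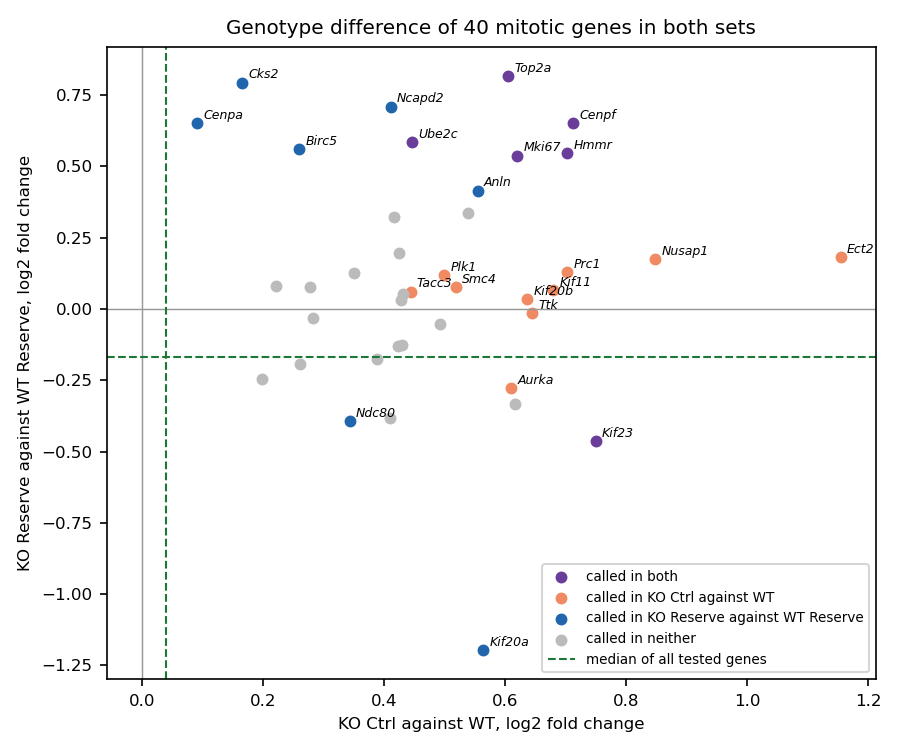
Log2 fold change of each mitotic gene in KO Reserve against WT Reserve (y axis) and in KO Ctrl against WT (x axis), coloured by which comparison called it at adjusted p below 0.05, with the medians of all tested genes (dashed). Top2a, Cenpf, Hmmr, Mki67 and Ube2c were called higher in both, and Kif23 is the single gene called in opposite directions on the deposited scale.

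The genotype effects of both sets share no library. The columns of the reserve libraries carry another prefix in the table, and whether allele, run and sort were the same is not given, so the reserve label cannot be told apart from such differences. Cenpf, Hmmr, Mki67, Top2a and Ube2c rose in both, Kif23 rose outside the reserve set and fell within it, and 17 genes passed in neither. Of all tested genes 1.53% rose in KO Ctrl against WT, and 12% rose and 29.3% fell in KO Reserve against WT Reserve. The share of all genes with the same joint outcomes was not counted, so these joint counts are a description. The difference of the effects, reserve minus nonreserve, was higher for 3 genes and lower for 16, where 8.03% of all tested genes were higher and 22.9% lower. Its median was -0.390, against -0.223 over all genes. The split was 0 higher and 9 lower with quantile normalization, where 15.1% of all genes were higher and 13.8% lower. It was 5 and 4 with median-ratio scaling, where 16.1% and 13.8% of all genes were, and 5 and 4 with a length trend removed, where 15.2% and 13.3% were, so the counts of these last 2 settings lay near the shares of all genes. The most negative difference was that of Kif20a, -1.76 (SE 0.275, adjusted p = 0.000194, limma), and the most positive that of Cks2, 0.63 (SE 0.134, adjusted p = 0.00216, limma). Of the 19 genes, Aurka, Kif20a, Kif23 and Kif2c, a microtubule-depolymerizing motor, kept their call in every alternative processing and with any 1 library left out, and all of them were lower. The count of lower genes was 8 without WT replicate 3 or KO Reserve replicate 3, 9 without KO Ctrl replicate 1, KO Ctrl replicate 3 or KO Reserve replicate 2, and 10 without WT Reserve replicate 3. In those fits 2680 to 3223 of the 14285 tested genes were lower.

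The reserve label was compared within each genotype. In the wild type, WT Reserve against WT had 16 mitotic genes higher and 6 lower, where 30.8% of all tested genes were higher and 27.9% lower. The groups did not overlap for 18 genes higher and 7 lower in WT Reserve, where 33.6% of all genes were higher and 30.4% lower without overlap. At an unadjusted p below 0.05, 17 were higher and 7 lower, where 33.3% of all genes were higher and 29.8% lower. Ect2 had 17, 10.9 and 19.5 FPKM in WT Reserve, against 3.34, 4.91 and 4.24 in WT, and Mki67 had 31.1, 28.9 and 35.3, against 13.6, 15.2 and 13.6, both higher without overlap. Racgap1, the GTPase-activating partner of Kif23 in centralspindlin, averaged 109.9 ± 22.1 FPKM in WT Reserve and 40.4 ± 2.27 in WT. Plk1 fell most, with 49.2, 36.9 and 53 FPKM in WT Reserve, against 79.9, 82.1 and 73.6 in WT (log2 fold change -0.76, adjusted p = 3.89e-05, limma). Cdc20, Ccna2, Cdc25c, Prc1 and Tpx2 fell too. Cdk1 did not differ beyond its spread, at 454 ± 53.6 FPKM in WT Reserve and 452 ± 5.81 in WT.

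In the knockout, KO Reserve against KO Ctrl had 11 genes higher and 20 lower, where 24.8% of all tested genes were higher and 40.4% lower. The groups did not overlap for 12 genes higher and 19 lower in KO Reserve, where 25.9% of all genes were higher and 41% lower without overlap. The split was 12 higher and 14 lower with quantile normalization, where 31.6% of all genes were higher and 32.7% lower. It was 14 and 12 with median-ratio scaling, where 32.4% and 33% were, and 15 and 10 with a length trend removed, where 31.7% and 30.2% were. The mitotic counts lay near the shares of all genes in the first 2 settings. All 5 mitotic kinases fell on the deposited scale, led by Plk1 with 53.2, 45.5 and 51.1 FPKM in KO Reserve, against 105, 113 and 117 in KO Ctrl. Kif20a fell by 1.88 on the log2 scale, and Cdc25c averaged 13.6 ± 2.3 FPKM in KO Reserve and 27.7 ± 1.79 in KO Ctrl. Among the higher genes were Cks2 (1.43), Cenpa (1.18), Mki67 (1.03) and Top2a (0.95) on the log2 scale, all without overlap. In both comparisons of the reserve label the granulocyte markers were higher for 10 of 10 genes and the megakaryocyte markers lower for 7 of 7, and their part was not tested.

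Deviations of the mitotic genes within groups were compared between libraries. Over the 12 libraries without the reserve label, the deviations of 2 mitotic genes from their group means had a median Pearson's r of 0.467 over 780 pairs, and 91.8% of pairs were positive. Over the 6 reserve libraries the median was 0.323 with 67.6% positive, and over all 18 it was 0.351 with 84.4%. In the 12 libraries, for 46 DNA replication genes the median was 0.510, and for 80 other mitotic genes 0.271. The points share library, depth and scaling, so these values are a description.

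Other genes of the cell cycle were read beside the 40. Of 80 other mitotic genes, 10 rose and 0 fell in KO Ctrl against WT, with a median of 0.332, where 1.53% of all tested genes rose and 1.12% fell and their median was 0.040. Sgol2a, a shugoshin that protects sister cohesion, had the largest fold change of them (0.93), followed by Aspm, a spindle-pole protein (0.90). In KO Reserve against WT Reserve 22 of the 80 rose and 6 fell, where 12% of all genes rose and 29.3% fell. Of 46 DNA replication genes none passed in KO Ctrl against WT by limma, and their median was 0.215. At an unadjusted p below 0.05, 10 were higher and 0 lower, where 10.5% of all genes were higher and 7.13% lower. In KO Reserve against WT Reserve 10 replication genes rose and 6 fell, beside the same shares of all genes. In WT Reserve against WT 27 rose and 4 fell, where 30.8% of all genes rose and 27.9% fell.

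Of 22 transcriptional regulators of mitotic genes, 2 rose and 0 fell in KO Ctrl against WT, Rbbp4 (0.34) and Rbl1 (0.44), which encode parts of the DREAM complex. Foxm1 had 13.6, 17.5 and 14.9 FPKM in KO Ctrl, against 9.71, 8.83 and 9.45 in WT, apart but not past the test (adjusted p = 0.183, limma). Mybl2, B-MYB, overlapped between the groups, at 40.1 ± 7.77 FPKM in KO Ctrl and 34.6 ± 3.2 in WT. In WT Reserve against WT both fell, Foxm1 to 4.6 ± 2.47 FPKM in WT Reserve, against 9.33 ± 0.453 in WT.

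Cdkn1a, outside the reserve set, ran in the reverse order of the mean level of the mitotic genes over the 4 groups, although not every neighbour in that order differed beyond its spread. It had 34.7, 37.3 and 34.6 FPKM in KO Wnt5a, 113, 93.6 and 88.9 in KO Ctrl, 82.7, 87.4 and 162 in Wnt5a and 194, 207 and 233 in WT. It fell in KO Ctrl against WT (log2 fold change -1.10, SE 0.213, adjusted p = 0.0106, limma) and in KO Wnt5a against KO Ctrl (-1.44, adjusted p = 0.00193, limma), a comparison in which no mitotic gene passed. In Wnt5a against WT its difference of -0.99 did not pass (adjusted p = 0.217, limma). In the reserve groups it was at 21.9 ± 2.62 FPKM in KO Reserve and 29 ± 7.12 in WT Reserve, which overlapped. The reserve groups did not follow the order of the other 4. Their Cdkn1a means were the lowest of the 6 groups. Their mitotic means of log2(FPKM + 1) were 6.05 in KO Reserve and 5.94 in WT Reserve, below the 6.20 of KO Ctrl. The part of Cdkn1a in the mitotic differences was not tested.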

How the data were processed

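The 18 libraries (6 groups of 3, grouped by their labels) came from sorted cells by ultra-low-input SMARTer amplification and Nextera tagging, which keep no strand, per the labels' protocols. Cufflinks, TopHat2 2.0.10, CASAVA 1.8.2 and the mm10 build are listed, with no roles, per the submitters' processing notes. The authors deposited 1 table of 44349 genes. Its header names no unit, and the deposited values were read as FPKM from the Cufflinks entry and from the steps of the low values. Those steps gave 23100000 to 46200000 fragments per library, an estimate, and 3 fragments on 1 kb were worth 0.065 to 0.130 FPKM, for counting error only. The reserve columns carry a different prefix in the header than the other 12.

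The deposited FPKM were fitted as log2(FPKM + 1) with limma 3.58.1 (R 4.3.3), with an intensity trend, robust moderation and 1 mean per group over all 18 libraries. Fold changes on this scale understate those of low genes. Tested were 14285 genes (3 or more libraries at 1 FPKM or above), and p-values were adjusted over all of them by Benjamini-Hochberg. Tables were made with Python 3.11.15, pandas 2.3.3 and numpy 2.4.6. The fit was also run on data simulated for KO Ctrl against WT alone, with known changes in some genes and independent normal errors. The 16 genes with missing values were left out. Replicates of a group correlated at Pearson's r of 0.932 to 0.968 over genes. The alternatives were no trend, no filter, a filter at a mean of 5 FPKM, a pseudocount of 0.1, median-ratio scaling, quantile normalization, library weights, the compared libraries alone, protein-coding genes alone, a replicate block and leaving out each library. Chosen after the data were seen were a fit without the 6 reserve libraries and one with a length trend removed.

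The 40 genes, the other gene lists and the markers were chosen with earlier results of these data known. Values in every library, or group means with SD, are given for 20 genes that define the roles. They are also given for many, not all, of the largest, smallest and opposing changes of a comparison. Of other genes, Cdkn1a, Foxm1, Mybl2 and at most 2 called genes per list and comparison are named, and further members were named after their values were seen. Promoters came from RefSeq GRCm38.p6 and positions from GENCODE M21.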

Additional observations from a re-analysis of the deposited data

Results flagged for a closer look

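The effect of the knockout differed between the reserve set and the other libraries for 19 of the 40 mitotic genes, by limma's test of the difference itself (KO Reserve minus WT Reserve, less KO Ctrl minus WT, on the log2 scale, 3 libraries a group). It was more positive in the reserve set for Cks2 (0.628), Cenpa (0.562) and Birc5 (0.301), and the value of Birc5 was -0.024 after quantile normalization. Of midzone and cytokinesis genes it was more negative for Kif20a (-1.761), Kif23 (-1.212), Ect2 (-0.972) and Prc1 (-0.575). Of mitotic kinases it was more negative for Aurka (-0.888), Bub1 (-0.793), Ttk (-0.658) and Aurkb (-0.566). Of spindle genes it was more negative for Kif2c (-0.950), Nusap1 (-0.671), Kif11 (-0.615) and Kif20b (-0.600). The others were Ndc80 (-0.735), Cdc25c (-0.454), Bub3 (-0.443) and Smc4 (-0.443). The median over all tested genes was -0.223, and 8.03% of them were higher and 22.9% lower by the same test. Of the 19 calls, 4 (Aurka, Kif20a, Kif23 and Kif2c) held under every other processing and 9 with any 1 library left out. With median-ratio scaling 5 mitotic genes were higher and 4 lower, where 16.1% of all genes were higher and 13.8% lower.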

How the results depend on the processing

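The count of mitotic genes that rose in KO Ctrl against WT was 16 as reported, 10 with no filter, 29 with library weights, 23 without the reserve libraries and 5 to 13 with 1 library left out. Of all tested genes, 218, 118, 873, 423 and 79 to 292 rose in the same settings, out of 30242 with no filter and 14285 otherwise. In Wnt5a against WT the mitotic count was 0, 34 with library weights, where 832 of the 14285 tested genes rose, and 0 in every other setting run. In KO Wnt5a against Wnt5a it was 1 as reported, 3 with quantile normalization or protein-coding genes alone, 0 with median-ratio scaling, the compared libraries alone or a length trend removed, 2 with a mean of at least 5 FPKM or a replicate block, 6 with library weights, 4 without the reserve libraries and 0 to 1 with 1 library left out. Of all 14285 tested genes, 201 rose as reported, 116 with median-ratio scaling, 958 with library weights, 395 without the reserve libraries and 42 to 172 with 1 library left out. In KO Wnt5a against WT the mitotic count was 27, 16 with median-ratio scaling, 17 with the length trend removed, and 13 to 25 with 1 library left out. Of all tested genes 972, 504, 522 and 308 to 582 rose in the same settings. In KO Reserve against WT Reserve 17 mitotic genes rose after quantile normalization, 21 with median-ratio scaling and 20 without the length trend, and 1 fell in each, against 10 and 3 as reported. With 1 library left out 2 to 8 fell, where 3339 to 4300 of the 14285 tested genes fell. In KO Reserve against KO Ctrl 20 mitotic genes fell as reported, 10 without the length trend and 12 with median-ratio scaling, where 5778, 4298 and 4707 of all tested genes fell. The difference of the knockout effects had 3 mitotic genes higher and 16 lower as reported, 0 and 9 after quantile normalization, and 5 and 4 both without the length trend and with median-ratio scaling, with 8 lower with no filter and 8 to 20 lower with 1 library left out. Of all tested genes 2796 of 30242 were lower with no filter, and 2680 to 3679 of 14285 with 1 library left out. The cause was not tested.

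Of 140 fold changes that were recomputed in every setting (129 called and 11 others), the signs that turned were those of the log2 fold change of Cenpa, KO Ctrl against WT (-0.015 without the length trend, and -0.007 to 0.179 with 1 library left out), the log2 fold change of Ncapd2, Wnt5a against WT (-0.076 to 0.049 with 1 library left out) and, in KO Reserve against KO Ctrl, Kif11 (0.026 with quantile normalization, 0.128 with the length trend removed), Kif23 (0.025 and 0.096), Cdk1 (0.077), Nuf2 (0.023) and Tacc3 (0.148), the last 3 with the length trend removed. In the difference of the knockout effects, Birc5 turned to -0.024 with quantile normalization. Among all fold changes that had not passed, quantile normalization, median-ratio scaling and removal of the length trend turned the signs of 8, 7 and 8 genes in KO Reserve against WT Reserve, of 5 in each setting in KO Reserve against KO Ctrl, of 2, 2 and 3 in WT Reserve against WT, of 8, 9 and 8 in KO Wnt5a against KO Ctrl, of 2, 6 and 7 in KO Wnt5a against Wnt5a, of 9, 11 and 10 in the difference of the knockout effects, and, with the length trend removed alone, of Bub3 and Cenpa in KO Wnt5a against WT.

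Libraries of different groups share replicate numbers. Over all tested genes, libraries with the same number did not deviate together (Pearson's r of -0.0917 to 0.10, against -0.139 to 0.0928 for other numbers), so they were not taken as pairs. Of the 40 mitotic genes, replicate 3 was the lowest of its group for 27 in WT, 37 in Wnt5a, 27 in KO Wnt5a and 28 in KO Reserve. It was the lowest for 7 in KO Ctrl and 5 in WT Reserve. Whether replicate numbers mark a shared source was not tested. With the replicate block 15 genes rose in KO Ctrl against WT, 28 in KO Wnt5a against WT and 2 in KO Wnt5a against Wnt5a, 11 rose and 3 fell in KO Reserve against WT Reserve, 16 and 6 in WT Reserve against WT, 11 and 20 in KO Reserve against KO Ctrl, 2 and 16 for the difference of the knockout effects, and 0 in the remaining comparisons. Of all 14285 tested genes 221, 909 and 179 rose in KO Ctrl against WT, KO Wnt5a against WT and KO Wnt5a against Wnt5a. In KO Reserve against WT Reserve 1696 rose and 4151 fell. In WT Reserve against WT 4392 rose and 3983 fell, and in KO Reserve against KO Ctrl 3529 and 5758. For the difference of the knockout effects 1156 were higher and 3233 lower. The lowest value of the 40 genes, 3.34 FPKM, lay above the 0.130 FPKM that 3 fragments on 1 kb are worth in the shallowest library.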
